A study of Drosophila melanogaster with 4 samples.

Results

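The right arm of the third chromosome, 3R, carried 1815 of the 8614 Myc peaks listed for Drosophila melanogaster larvae at the wandering stage, the end of larval life (L3), or 21.1% of the list. Its peaks are those that the deposited list assigns to the sequence 3R of FlyBase Release 5; the 15 peaks of 3RHet, a separate heterochromatin scaffold, were not counted with them. Chromatin immunoprecipitation and sequencing (ChIP-seq) had been made from 2 libraries precipitated with MycN, a rabbit polyclonal antibody against Drosophila Myc, the product of the gene dm, and from 2 libraries of input DNA. Whole larvae of unrecorded sex, reared at 25 °C, had been cross-linked in 1.8% formaldehyde for 15 min. Both kinds of library came from the strain Y cn bw sp, so the marker mutations are shared by ChIP and input. The labels give y[1] and oc[R3.2] on the first chromosome. For the second they list cn[1], bw[1], sp[1], CG33964[R4.2], Gr22d[1] and Gr22b[1]. For the third they give LysC[1] together with 4 alleles of genes that a Release 6 gene table places on 3R, namely lab[R4.2], MstProx[1], GstD5[1] and Rh6[1]. A whole larva mixes polyploid larval tissues with dividing imaginal cells, so the list does not say in which cells a region was bound.

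Myc is a basic helix-loop-helix protein that pairs with Max and binds DNA, mostly near the start sites of genes that are already active. In the fly it drives cell growth, ribosome production and the repeated rounds of DNA replication of larval tissues. The arm 3R holds the Hox genes of the Antennapedia and bithorax complexes, which give body segments their identity, the Notch-responsive Enhancer of split complex and clusters of the stress chaperone gene Hsp70.

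The authors deposited 1 list for the whole series, in which each peak has a first base, a last base and a score from the peak caller MACS. The score has no stated scale, so it is used here only to rank and filter peaks and to give medians within this list. No value belongs to a single library. Depth is unknown and no spread between replicates could be computed, so the comparisons below are descriptions without a test. Peaks are neighbours on 1 molecule and are not replicates. Arms 2L, 3L and X, with 1460, 1556 and 1460 peaks, served as background. No Release 5 genome sequence was used here, so no peak was tied to a gene and no sequence of a peak is shown.

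Peaks reached from one end of 3R to the other. The first began at base 275, scored 24.64 and was 546 bp wide. The last, from 27893619 to 27894520, scored 69.88 and was 902 bp wide. Low coordinates of 3R lie at the centromeric base and high ones at the telomeric tip. From base 1 to the end of the last peak the arm had 65.1 peaks per Mb, against 63.6 on 2L, 63.4 on 3L and 65.1 on X. The peaks covered 1730 kb, or 6.20% of that span, a value between the 5.80% of 3L and the 6.57% of X. In number and in coverage 3R thus lay inside the range of the other arms.

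A typical peak on 3R was 759 bp wide, with an interquartile range from 460 to 1171 bp, and had a score of 66.1. The middle part of the scores ran from 24.8 to 162, the lowest was 6.74 and the highest 971.90. Median widths on 2L, 3L and X were 732, 732.5 and 775 bp, and median scores there were 60.5, 59.5 and 65.1. Wider peaks scored higher, with a Spearman's rho of 0.81 across the 1815 peaks of 3R, described without a p-value because width and score come from the same signal. The 453 peaks with the lowest scores, about 25% of them, had a median width of 320 bp, and the 454 with the highest 1344.5 bp.

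**Figure D1:**
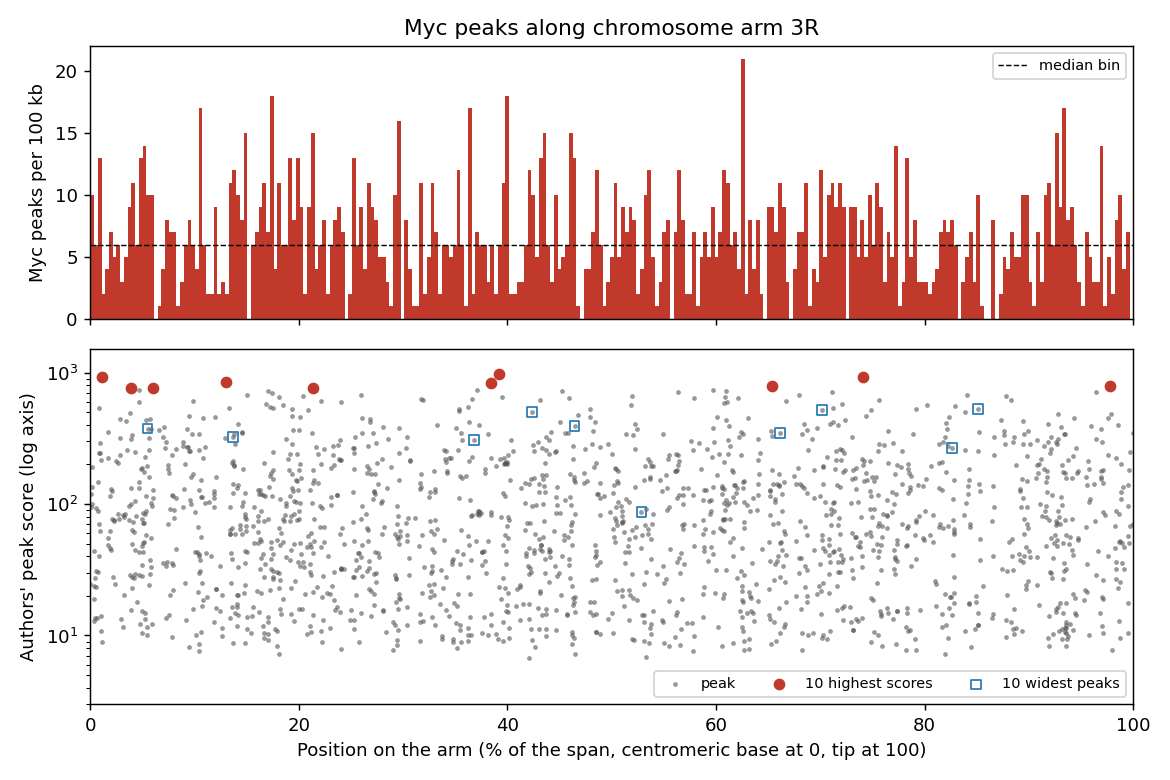
Upper panel: Myc peaks in each full 100 kb bin of 3R, with the median bin of 6 peaks as a dashed line. Lower panel: the authors' score of each of the 1815 peaks on a log axis, against its position in percent of the arm's span from the centromeric base to the tip. The 10 highest scores and the 10 widest peaks lie along the arm in different places, and empty bins are interspersed with bins of 15 or more peaks.

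The strongest Myc peak of 3R lay near the middle of the arm, from 10918703 to 10921878, with a score of 971.90. At 3176 bp it was also among the 48 peaks wider than 3000 bp, and only 76 unbound bases separated it from the peak before it. The second, from 20655149 to 20656374, scored 925.32 but was much narrower at 1226 bp. It stood alone, with no other peak within 10 kb. The third, from 303999 to 306066, scored 921.42 and lay in the basal 1.09% of the arm.

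The other peaks of the 10 strongest scored from 763.38 to 852.26. One of them, from 3634445 to 3636674 with a score of 852.26, was likewise alone, with 27.8 kb unbound before it and 73.9 kb after it. The peak from 10729442 to 10730454 scored 838.61 with a width of 1013 bp and stood at the edge of an unbound stretch of 117.8 kb. Toward the tip there were peaks from 18236074 to 18237878 and from 27283206 to 27284904, with scores of 790.07 and 785.29. The remaining 3 lay in the basal part of the arm. They began at 5964688, 1089506 and 1681465, with scores of 766.39, 765.07 and 763.38. Among all 10, 5 lay in the first 25% of the arm, and their widths ran from 1013 to 3176 bp.

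Scores over 500 were reached by 68 peaks of 3R, or 3.75%, against a background of 3.82% on 2L, 3L and X, so the share on 3R was near that of the other arms. These 68 were from 1013 to 7338 bp wide, and none was narrower than 1 kb. The full 1 Mb windows of the arm held from 0 to 6 of them, with a median of 2. The 5th and the 6th Mb from the base held 6 each. The 26th Mb was the only full window without one, and its strongest peak scored 485.01. The longest stretch free of such peaks ran for 2.25 Mb from 24638316 to 26885259. The median interval between neighbouring strong peaks was 271.8 kb, and 3 pairs lay within 10 kb. This spacing depends on their number, 68 over 27.9 Mb, and was not compared with other arms. The closest pair, from 1295536 to 1297294 and from 1299539 to 1301211, scored 597.74 and 738.98 with 2244 bp between. Of the 68, 10 had no other peak of any score within 10 kb, or 14.7%, against 15.4% of all peaks on the arm.

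**Figure D2:**
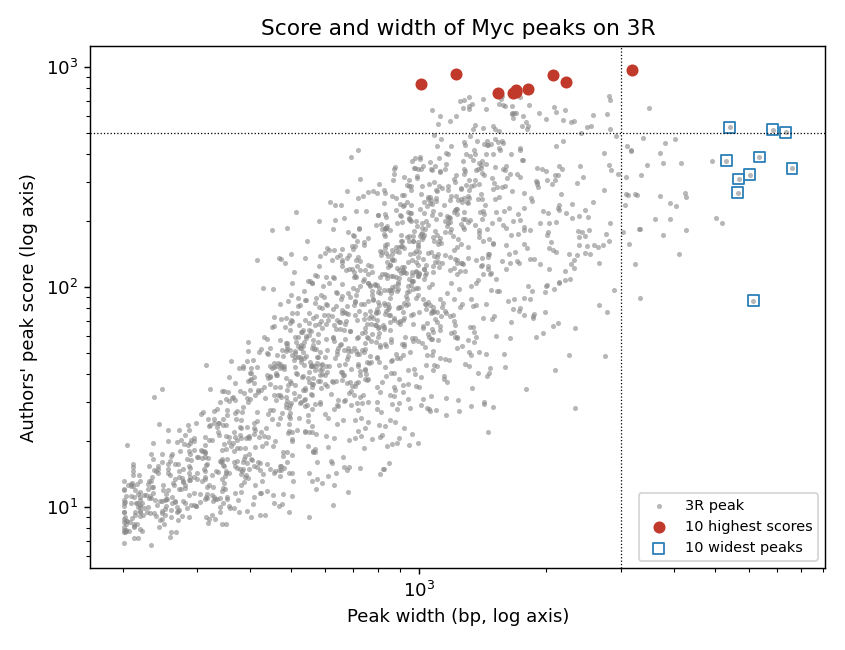
Width (bp) and authors' score of the 1815 Myc peaks of 3R, both on log axes, with dotted lines at 3000 bp and at a score of 500. The 10 highest scores are filled circles and the 10 widest peaks open squares. No peak is in both sets, each only 10 of the 1815. Among the widest, 1 with a score of 86.38 lies well below the rest of its set.

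The widest Myc region of 3R extended over 7601 bp, from 18455167 to 18462767, and scored 345.77. It was followed by a peak of 7338 bp from 11822190 to 11829527, scoring 505.00, and by one of 6835 bp from 19558381 to 19565215, scoring 517.37. In both of these the next peak began within 100 bp of the wide one, 61 and 70 unbound bases away. The fourth, from 12948397 to 12954755, was 6359 bp wide and scored 389.36. The fifth differed from them in score. It ran from 14738646 to 14744807, 6162 bp, with a score of 86.38, which ranked only 761st on the arm.

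Further wide peaks began at 3814568, 10248613, 23048788, 23744094 and 1528472, with widths of 6040, 5687, 5654, 5416 and 5321 bp. The one at 10248613 scored 309.29 and had no other peak within 10 kb, with 29978 unbound bases before it and 52766 after it. The strongest of these 5 was the peak at 23744094, which scored 531.65. None of the 10 widest peaks was among the 10 with the highest scores. With each set only 10 of 1815 peaks, this says little, and across the arm wider peaks scored higher.

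In all, 48 peaks of 3R were wider than 3000 bp, or 2.64%, against 2.97% on 2L, 3L and X. The shares of these 3 arms were spread on both sides of it, at 4.18%, 1.22% and 3.63% in that order, so 3R lay inside their range. Of the 48, 5 also scored over 500, a larger share than the 3.75% of all peaks on the arm, and 2 scored under 100. The median score of the wide peaks was 267.1. No 2 of them lay within 10 kb of each other, though with 48 over 27.9 Mb such pairs would be few by number alone. The closest, from 26289559 to 26293613 and from 26308502 to 26312318, had 14888 bp between them, so the arm had no row of adjoining wide peaks. In 5 equal parts of the arm from base to tip they numbered 8, 8, 17, 4 and 11, most in the middle part.

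From base to tip the number of peaks per full 1 Mb window, counted from base 1, varied 2.14-fold. The 27 full windows held 65.2 ± 13.5 peaks (mean ± SD over windows), from 43 to 92. The 6th Mb held the most, with 92 peaks covering 91.9 kb, and the 13th Mb came next with 90 peaks over 90.6 kb. The fewest, 43, were in the 14th Mb, directly beyond, and in the 24th. A window moved in steps of 100 kb found the richest megabase from 4600001 to 5600000, with 97 peaks, and the poorest from 23800001 to 24800000, with 32.

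Over the 27 full windows, which share 1 list, Spearman's rho was −0.02 between the number of peaks and their median score. It was 0.27 between the number of peaks and the number scoring over 500. The median score per window ran from 42.60 in the 10th Mb to 90.63 in the 3rd. Divided into 5 parts of 5.58 Mb from base to tip, the arm carried 72.1, 64.7, 63.3, 68.8 and 56.5 peaks per Mb. The basal part was thus the richest and the outermost the poorest. Peaks scoring over 500 numbered 18, 16, 10, 16 and 8 in the same parts, with no steady decline from base to tip.

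**Figure D3:**
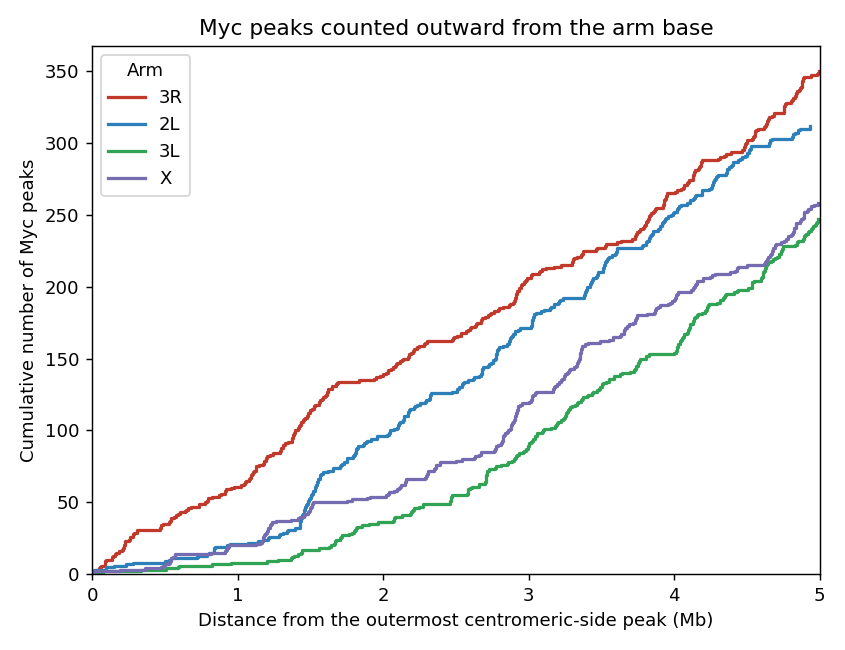
Cumulative number of Myc peaks on 3R, 2L, 3L and X, counted outward from the outermost peak on the centromeric side (x axis, Mb; y axis, number of peaks). The line of 3R rises from the start and reaches 61 peaks at 1 Mb, where the lines of the other 3 arms stand between 8 and 21.

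Peaks began at once at the base of 3R. Counted outward from its first peak, 25 peaks were reached after 0.26 Mb on 3R, after 1.18 Mb on X, 1.21 Mb on 2L and 1.702 Mb on 3L. The 100th was reached after 1.40 Mb on 3R and after 2.05 to 3.10 Mb on the others. The first 5 Mb held 350 peaks on 3R, 312 on 2L, 258 on X and 247 on 3L. These are the bases of the assembled arms, and how much pericentromeric sequence each assembly includes was not tested. At the other end the order was different. The outermost 1 Mb of 3R held 58 peaks, against 66 on X, 85 on 3L and 91 on 2L.

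At the finer scale of 100 kb, the 278 full bins of 3R held a median of 6 peaks and at most 21. The 78 richest bins, or 28.1% of them, held at least 50% of the peaks. There were 12 bins with 15 or more peaks and 13 with none. Empty bins made up 4.68% on 3R, against 5.68% on 2L, 8.16% on 3L and 6.25% on X. The variance of the bin counts was 2.58 times their mean on 3R, and 3.15, 2.66 and 2.96 times on those arms, so 3R had the lowest value of both. Adjacent bins were only weakly alike, with a Spearman's rho of 0.08 between a bin and the next on 3R, against 0.28 on 2L, 0.23 on 3L and 0.25 on X. These values are descriptions, since neighbouring bins share peaks' surroundings and the same libraries. They include the basal bins, where 2L, 3L and X held fewer peaks than 3R, and the part of those bins in the differences was not tested.

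The most crowded bin of the arm, from 17400001 to 17500000, held 21 peaks over 18.4 kb. With bins shifted by 50 kb, no bin held more than 16. The 21 had a median score of 31.2, against 66.1 for the arm, and the strongest scored 354.85. Of them 10 scored under 30, where the lower quartile of all peaks on the arm was 24.8. The bin from 4800001 to 4900000 held 18 peaks and was of another make-up, with a median score of 82.7 and a strongest peak of 700.02. A further 18 lay from 11100001 to 11200000, where the highest score was 234.72. The next 3 bins, with 17 peaks each, began at 2900001, 10100001 and 26000001, and had median scores of 40.1, 48.6 and 31.1. In 5 of these 6 bins the median was below the 66.1 of the arm. The share of all bins below it was not counted, and per Mb the rho between number and median score was −0.02.

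Long unbound stretches took up less of 3R than of the other arms, a difference that could not be tested. The spans compared include the arm bases, where the first 1 Mb held 61 peaks on 3R and 21, 8 and 20 on 2L, 3L and X. How much these bases contribute to the differences in long stretches was not tested. Of the 1814 intervals between neighbouring peaks, 29 were longer than 100 kb, or 1.599%, against 1.97% on 2L, 3L and X. Taken singly, those arms had 1.92%, 1.865% and 2.12%. Together the 29 took up 4199 kb, or 15.1% of the span, compared with 17.6% on 2L, 18.9% on 3L and 20.4% on X. The median interval on 3R was 6300 bp, against 6094, 6391 and 5371 bp on those arms.

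**Figure D4:**
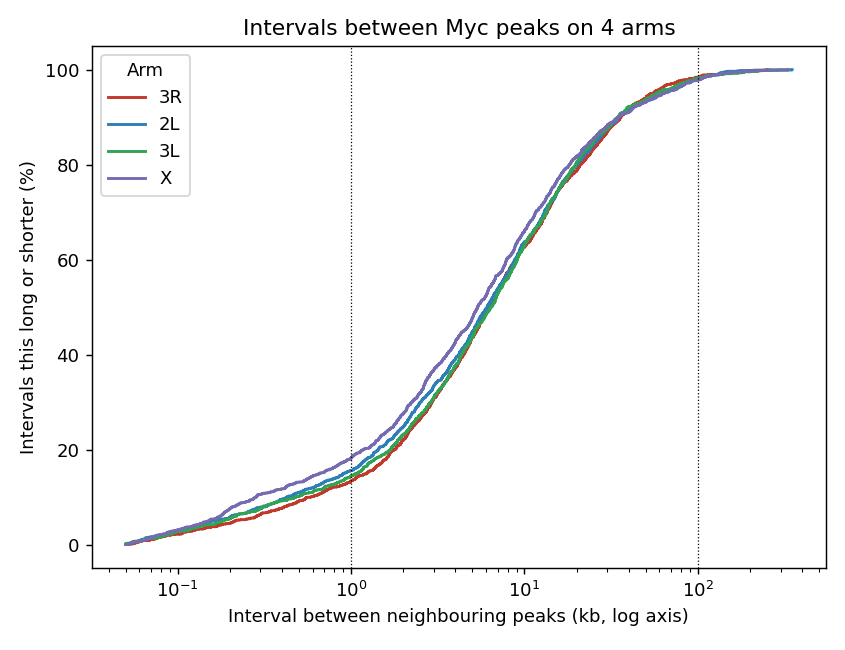
Share of intervals between neighbouring Myc peaks (y axis, percent) that are as long as the value on the x axis (kb, log axis) or shorter, on 3R, 2L, 3L and X, with dotted lines at 1 and 100 kb. The 4 lines lie close together at 100 kb; at 1 kb that of 3R is lowest, at 13.5%, and that of X highest, at 18.2%.

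The longest stretch of 3R without a peak ran for 254.5 kb, from 23873181 to 24127661, while the longest on 2L, 3L and X were 350.1, 331.6 and 332.3 kb. It was bordered by weak peaks, with scores of 23.78 and 13.69. The next, 245.0 kb from 23128051 to 23373082, began beside a strong peak that scored 559.62. Another in the same region, from 24171485 to 24369556, was 198.1 kb long. These 3 stretches lay within 1.24 Mb and made up 56.2% of it. The 37 peaks between them fell into 2 islands. The larger, from 23373083 to 23873180, held 29 peaks and included the ones at 23461464 and 23744094, with scores of 678.76 and 531.65. The smaller held 8 peaks in 43.8 kb, from 24127662 to 24171484. The region had 29.8 peaks per Mb, with a median score of 74.0 where the arm had 66.1.

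Elsewhere on the arm, a stretch of 208.9 kb from 18620764 to 18829689 followed a peak that scored 602.96. Another of 192957 bp ran from 17959709 to 18152665 between peaks scoring 45.21 and 14.23. The others among the 10 longest were from 153.0 to 171.0 kb. They began at 2300560, 8286288, 26427967, 310985 and 6790582. The one at 310985 opened 4.92 kb beyond the third strongest peak of the arm.

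The peaks that bordered the 29 long stretches were of all strengths. The 56 bordering peaks had a median score of 83.5, from 8.99 to 838.61, and a median width of 761 bp. The other 1759 peaks had a median score of 65.8 and a median width of 759 bp. A lone peak from 1832193 to 1835952 stood between 2 such stretches, of 143.8 and 102.1 kb, and was 3760 bp wide with a score of 366.88. Another from 8683488 to 8684252, between 133.2 and 102.8 kb, scored 77.70. In all, 9 peaks of 3R had more than 50 kb unbound on each side, and their scores ran from 23.78 to 477.50.

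At the short end, 244 intervals of 3R were under 1 kb, or 13.5%, against 16.1% on 2L, 3L and X. Median scores in these close pairs were 14.5 for the weaker member and 95.7 for the stronger. Pairs farther apart had medians of 35.0 and 140.8. Both scores were over 300 in 1 of the 244 close pairs and in 22 of the 1570 pairs farther apart. The close pair comprised a peak of 3081 bp from 794867 to 797947, with 316.82, and one from 798378 to 799832, with 443.32. Most peaks, 1379, had no other within 1 kb, while 155 pairs, 29 runs of 3 and 8 longer runs made up the rest.

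The 2 longest runs had 7 peaks each and differed in build. From 4872622 to 4883843, in a bin of 18 peaks, a block of 3 peaks scoring 155.19, 249.59 and 180.81 was followed by 4 with scores between 26.98 and 41.78. From 12174687 to 12185248, 4 peaks that scored from 9.83 to 15.88 lay between a peak of 165.54 and one of 255.67, the latter 4266 bp wide, and the run opened with a peak of 30.11. A run of 5 from 13525865 to 13530290 was weak throughout, with a highest score of 44.00. The 5 runs of 4, which began at 3297254, 12878571, 14809111, 21562591 and 25975935, had highest scores of 125.79, 72.54, 153.53, 49.65 and 198.05.

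Known loci of the arm were examined in windows made of whole 100 kb bins that hold them. Their Release 5 positions are background knowledge and come from no file used here. A Release 6 gene table, used here for names, gene types and gene order, lists all 12 loci on 3R in the order of the windows. Each window holds other genes too, and no peak in it was assigned to a gene.

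The window of the Antennapedia complex, whose Hox genes pattern the head and thorax, held 27 peaks in 500 kb from 2400001 to 2900000. Over all windows of that length on 3R the number ran from 9 to 58 with a median of 32. The table lists 19 protein-coding genes from lab to Antp. Bin by bin the window had 3, 6, 8, 6 and 4 peaks, the last bin with the lowest median score, 32.2. The median score of the 27 was 129.6, against 66.1 for the arm. Its strongest peak, from 2737311 to 2738968, scored 608.92, and its widest, from 2644684 to 2648702, was 4019 bp and scored 470.98. A stretch of 171.0 kb without a peak, from 2300560 to 2471518, reached into the window from the centromeric side. The strain carries the allele lab[R4.2] of the labial gene in this complex.

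The bithorax complex, whose genes Ubx, abd-A and Abd-B set the identity of the posterior thorax and the abdomen, lay in a window with 25 peaks, from 12400001 to 12800000. Windows of that length held from 8 to 49, with a median of 26. Of the 25 peaks, 10 lay in the first bin, and the following bins had 4, 5 and 6. The strongest peak, from 12623673 to 12625087, scored 718.04, the 16th highest of the arm, and had no other peak within 10 kb. The second to score over 500 was the outermost of the window, from 12795097 to 12796167, with 640.05. The longest unbound stretch was 63.1 kb, from 12482278 to 12545405. The widest peak was only 1496 bp and scored 28.58. Both Hox windows together had 57.8 peaks per Mb, against 65.1 on the whole arm. With windows 1 bin wider on each side the value was 67.7, so whether it lay below that of the arm depended on where the windows ended. The added bins held 1 and 17 peaks beside the Antennapedia window and 3 and 15 beside the bithorax window.

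The Enhancer of split complex encodes mostly basic helix-loop-helix repressors that Notch signalling switches on. Its 100 kb window from 21800001 to 21900000 held 13 peaks, and 255 of the 278 bins of the arm held fewer. None was strong. The highest score was 200.46, for the peak from 21867074 to 21868803, and the median was 49.2. Within the window the 8 peaks before that one scored from 7.69 to 65.27, and the 4 after it from 68.45 to 185.70.

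**Figure D5:**
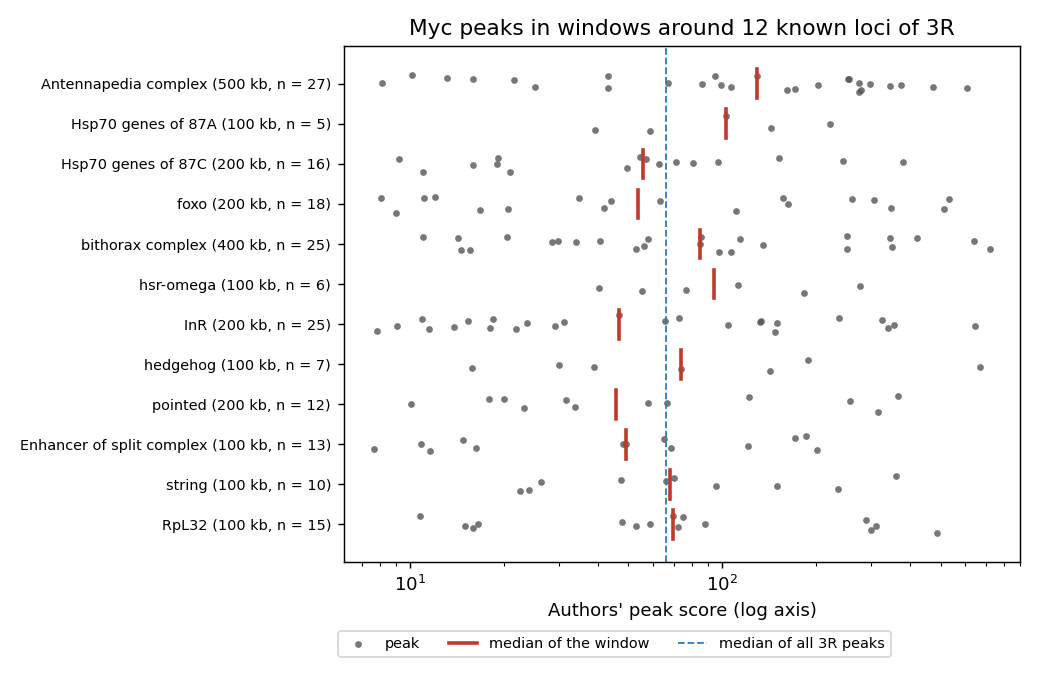
Authors' score (x axis, log) of each Myc peak in windows of 100 to 500 kb around 12 known loci of 3R, listed from base to tip. Red bars are the medians of the windows and the dashed line is the median of all 3R peaks, 66.1; the window of the Antennapedia complex has the highest median, 129.6, and that of pointed the lowest, 45.8.

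The 2 clusters of Hsp70, the heat-inducible chaperone, differed in their surroundings. The bin of the 87A pair, from 7700001 to 7800000, held 5 peaks, the strongest scoring 221.27. In the window of the 87C genes, the first bin, from 8200001 to 8300000, was among the most crowded of the arm, with 16 peaks and a highest score of 379.00, and the second, to 8400000, was empty. The unbound stretch that spanned the empty bin began inside the first bin and was 166.1 kb long, from 8286288 to 8452392. Hsp70 copies are nearly identical. Not given in the sources used here is how the authors placed reads that match several copies. The bin of hsr-omega, a heat-inducible non-coding RNA gene, held 6 peaks, the median number, of which the strongest, from 17121350 to 17124089, scored 275.73.

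Among loci of growth control and cell division, the window of InR, the insulin receptor, held 25 peaks from 17300001 to 17500000, and only 9 of the 277 windows of that length held as many or more. Its first bin had 4 peaks with a strongest score of 645.09, and its second was the 21-peak bin described above. The window of foxo, a transcription factor held in check by insulin signalling, had 18 peaks from 9800001 to 10000000. Of these, 2 scored over 500, namely 530.98 for the peak from 9850621 to 9853117 and 512.96 for its close neighbour from 9857092 to 9858637. The bin of string, the Cdc25 phosphatase that admits cells to mitosis, held 10 peaks from 25000001 to 25100000, with a highest score of 358.83. The bin of RpL32, a protein of the large ribosomal subunit, held 15 peaks from 25800001 to 25900000, which only 12 of 278 bins reached. The highest score there, 485.01, belonged to a peak of 2915 bp from 25881454 to 25884368, the strongest of the whole 26th Mb.

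The bin of hedgehog, which encodes a secreted signal, held 7 peaks from 18900001 to 19000000, among them 1 strong peak, from 18943074 to 18944650, with a score of 670.30. The window of pointed, an ETS transcription factor of the EGF receptor pathway, had 11 peaks in its first bin and 1 in its second. Its strongest peak, from 19156761 to 19158143, scored 366.43, and an unbound stretch of 106.3 kb, from 19189828 to 19296147, crossed it. These loci were chosen because their positions are well known and not as a list of Myc targets, so their peak numbers describe single places on the arm.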

How the data were processed

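Per the file headers, the authors deposited 1 peak list on FlyBase Release 5 with MACS as its source. Per the submitters' processing notes, the tools were MACS2, BWA, CASAVA 1.7.0.2 and CASAVA 1.7.0.3 and the build BDGP5, with no role stated. Not given in the sources used here: threshold, filters and any pooling of the ChIP libraries. The deposited score of a peak has no stated scale. Positions count from 1.

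Peaks were placed by their midpoint in full bins of 100 kb and windows of 1 Mb from base 1. Intervals are the unbound bases between neighbours. Strong peaks score over 500 and wide ones exceed 3000 bp. Named are the 10 strongest and 10 widest peaks, the first and last peak, the 10 longest intervals, the richest 5 bins (6 with ties), the longest runs of peaks under 1 kb apart, and windows around known loci; other peaks were named after their values were seen. The members and lists were chosen with earlier results of these data known. The locus windows were written from background knowledge; a look at the Release 6 table, allowing for the shift of the arm between releases, changed none. One further locus is not reported. Python 3.11.15, numpy 2.4.6, pandas 2.3.3, scipy 1.17.1 and matplotlib 3.10.9 were used. The functions were checked on simulated data. A count of peaks has no depth behind it here, so no interval is given.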

Additional observations from a re-analysis of the deposited data

How the results depend on the processing

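Of 35 alternatives to 14 results, 16 stayed within 1.5 times the reported value, within the 95% exact binomial interval for the share of close intervals (which treats intervals as independent), and on the same side of 1 where it is a ratio. Keeping only peaks at or above the median score of the whole list, 61.16, left 943 peaks on 3R, 33.8 per Mb, 52 intervals over 100 kb, 29 empty bins, 10 peaks in the densest bin, 3.61% of intervals under 1 kb, a rho of 0.51 between score and width and 35.6 peaks per Mb in the Hox windows. Merging peaks within 100 bp lowered the share of intervals under 1 kb to 11.5%. The ratio of density on 3R to that on the other 3 arms was 1.02, and 0.999 against X alone. The ratio of the first Mb to the rest of 3R was 0.94, and 1.07 with 2 Mb and 1.08 with 500 kb. That of the last Mb was 0.89, and 1.05 with 500 kb. Other limits gave 48 intervals over 75 kb and 11 over 150 kb, 110 peaks scoring over 400 and 42 over 600, and 75 peaks wider than 2500 bp and 20 wider than 4000 bp. The counts over other limits change by construction. Dropping weaker peaks can only lower the number of peaks, the peaks per Mb and the densest bin, and can only add empty bins. Merging peaks within 100 bp removes short intervals. The cause of the other changes was not tested. No paired analysis was possible because the 1 list carries no value per library, and for the same reason no library was left out. Since depth is unknown, a stretch without a peak may hold binding below the authors' threshold.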
